A study of Mus musculus with 50 samples.

Results

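The proteins of the mitochondrial ribosome are followed here in testis and spinal cord of homozygous wobbler (wr/wr) mice. Their transcripts were taken as every array probe whose gene symbol in the platform annotation begins with Mrpl or Mrps and a digit. This rule gave 79 probes for 64 genes, out of 20355 probes on the table, and RefSeq names 78 mouse protein-coding genes in the same way. It used no measured value. Of the 64 genes, 42 belong to the large subunit (51 probes) and 21 to the small subunit (27 probes), while the last, Mrps36, is now placed in the 2-oxoglutarate dehydrogenase complex. Mrps30 and Mrps18a, numbered as small subunit proteins, sit in the large subunit and are counted there.

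Each of 50 arrays with 2 colours carried mutant RNA and, as its control, wild-type RNA from the corresponding organ. In testis, the RNA of each of 10 wr/wr mice was hybridised on 4 arrays against a wild-type testis pool. In cord, 3 wr/wr RNAs were set against a wild-type cord pool: pool1 and pool2, each of 4 mice, on 4 arrays apiece, and mouse 5995 alone on 2 arrays. For every RNA, as many arrays had the mutant in Cy5 as in Cy3, and the cord mice are among the testis mice. The wobbler mutation lies in Vps54, part of a complex that returns vesicles from endosomes to the Golgi, and homozygous animals lose motor neurons and form sperm without a normal acrosome. The mice carry no other labelled allele or treatment, and their age is not given in the sources used here. No probe was named Vps54, so the genotype was not checked on the mutated gene. Since the arrays give ratios and not levels, the defining markers of each organ could not be checked either.

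Mitochondria translate the few proteins encoded by their own DNA, all of them subunits of the respiratory chain or of ATP synthase, on a ribosome of their own. Its proteins are encoded in the nucleus, made in the cytosol and imported. Many descend from the bacterial ribosome (here 38 genes, 47 probes) and others are found only in mitochondria (25 genes, 31 probes). The large subunit joins amino acids and releases the chain through the exit tunnel, the small subunit reads the messenger RNA, and the flexible L7/L12 stalk, to which Mrpl53 belongs, recruits translation factors.

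Promoters are shown for 4 members, with the GABPA core in capitals, because their ratios are described below. Averaged over both dyes, Mrpl53 had a cord mean of 0.97. In testis, 1 probe of Mrps17 and that of Mrpl51 were called higher, and Mrps26 lower. The sign of Mrpl53 turned with the dye, and Mrpl51 and Mrps26 were not called in testis on the Cy3 arrays alone. The promoters follow in the order Mrpl53, Mrps17, Mrpl51 and Mrps26. Each run covers 250 bases before and 50 bases after the start in RefSeq GRCm38.p6, in the direction of the gene. They lie at chr6:83108858-83109157, chr5:129715247-129715546, chr6:125191950-125192249 and chr2:130563507-130563806 in that order, all on the plus strand.
Mrpl53: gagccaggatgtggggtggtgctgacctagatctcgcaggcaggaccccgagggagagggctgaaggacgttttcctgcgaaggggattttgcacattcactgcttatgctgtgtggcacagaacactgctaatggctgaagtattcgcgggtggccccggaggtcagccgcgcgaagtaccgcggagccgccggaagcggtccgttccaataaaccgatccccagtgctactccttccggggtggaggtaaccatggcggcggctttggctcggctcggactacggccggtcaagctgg
Mrps17: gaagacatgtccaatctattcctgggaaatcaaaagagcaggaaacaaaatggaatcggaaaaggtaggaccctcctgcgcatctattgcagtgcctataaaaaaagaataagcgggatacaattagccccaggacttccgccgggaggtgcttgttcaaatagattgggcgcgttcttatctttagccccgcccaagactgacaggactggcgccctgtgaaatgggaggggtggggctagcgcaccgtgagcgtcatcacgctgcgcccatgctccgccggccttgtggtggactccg
Mrpl51: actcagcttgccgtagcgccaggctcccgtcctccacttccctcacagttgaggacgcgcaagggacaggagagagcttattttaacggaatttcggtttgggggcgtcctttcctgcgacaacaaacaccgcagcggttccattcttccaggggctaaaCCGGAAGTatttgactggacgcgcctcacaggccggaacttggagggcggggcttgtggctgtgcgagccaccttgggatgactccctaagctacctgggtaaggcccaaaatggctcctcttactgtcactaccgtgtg
Mrps26: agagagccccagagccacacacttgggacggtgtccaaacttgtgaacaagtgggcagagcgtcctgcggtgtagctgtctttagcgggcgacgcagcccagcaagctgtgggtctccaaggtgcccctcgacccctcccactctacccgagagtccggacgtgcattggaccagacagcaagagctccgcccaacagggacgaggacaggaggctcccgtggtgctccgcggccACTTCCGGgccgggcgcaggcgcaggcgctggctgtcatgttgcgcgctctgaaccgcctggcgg

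NRF1, the ETS factor GABPA and YY1 are known regulators of nuclear genes for mitochondrial proteins. Their cores were searched on both strands as CGCATGCG for NRF1, CCGGAAGT for GABPA and AAGATGGC for YY1, in the 57 member genes with a promoter in the table (7 genes had none). A gene was counted if any of its promoters held the letters. Those of GABPA were found in 11 of 57 members (19.3%), against 4.31% of all 27025 genes with a promoter. Those of YY1 were found in 11 (19.3%, against 3.19%) and those of NRF1 in 4 (7.02%, against 2.07%). At least 1 of the 3 was present in 25 members (43.9%), against 9.03% of all genes with a promoter, which also include genes that encode no protein. Among the promoters shown, the GABPA letters began 90 bases before the start in Mrpl51 and, on the other strand, 15 bases before it in Mrps26. Mrpl53 and Mrps17 held none of the 3. In members higher in testis the share with any core was 5 of 13 (38.5%), and in members with no testis call 19 of 42 (45.2%). A match of letters is a description of the sequence and says nothing of binding.

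Values are log2 ratios of wr/wr over wild type, centred on the median of each array. Arrays of 1 RNA were averaged within each dye and then over both dyes, so that each mouse or pool gives 1 value. This direction is likely, but no source used here states it. If every array ran as wild type over wr/wr, each sign below would turn. If the ratios are instead Cy5 over Cy3 on every array, the values themselves change, as given beside the results of each organ. Apart from dye effects, a true difference keeps its sign in both orientations as mutant over wild type, and turns it as Cy5 over Cy3. With the mutant in Cy5 and in Cy3, cord markers had medians of 0.658 and 0.703 (microglia) and -0.343 and -0.672 (myelin). Those of cord astrocytes were 0.468 and 0.209, of cord neurons 0.000833 and -0.339, and of testis Leydig cells -0.303 and -0.242. Because a single pool stands for the wild type of each organ, the tests leave out the spread among wild-type mice, and p-values measure the spread among wr/wr RNAs. A probe was called at a limma adjusted p of at most 0.05, with the adjustment over all probes tested.

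In testis, a minority of the transcripts of the mitochondrial ribosome differed in wr/wr mice, most of these being higher by small amounts. Of 79 probes tested, 15 were called higher (19%) and 3 lower (3.8%), against 7.28% higher and 5.06% lower among the 20218 probes tested. The called ratios were small, from 0.106 to 0.284 in size. A positive mean was found for 63 of 79 members, against 9428 of all 20218 probes. The members' median was 0.0715, against -0.0112 over all probes, and came to 0.0732 on the arrays that had the mutant in Cy5 and 0.0686 on those that had it in Cy3. Read as Cy5 over Cy3, 3 members were called (2 higher, 1 lower) with a median of 2.5e-05. Positive in every mouse were 10 members (12.7%, against 3.31% of all probes): Mrpl11, Mrpl16, Mrpl34, Mrpl38, Mrpl48, Mrps9, Mrps17, Mrps25, Mrps34 and Mrps36.

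**Figure D1:**
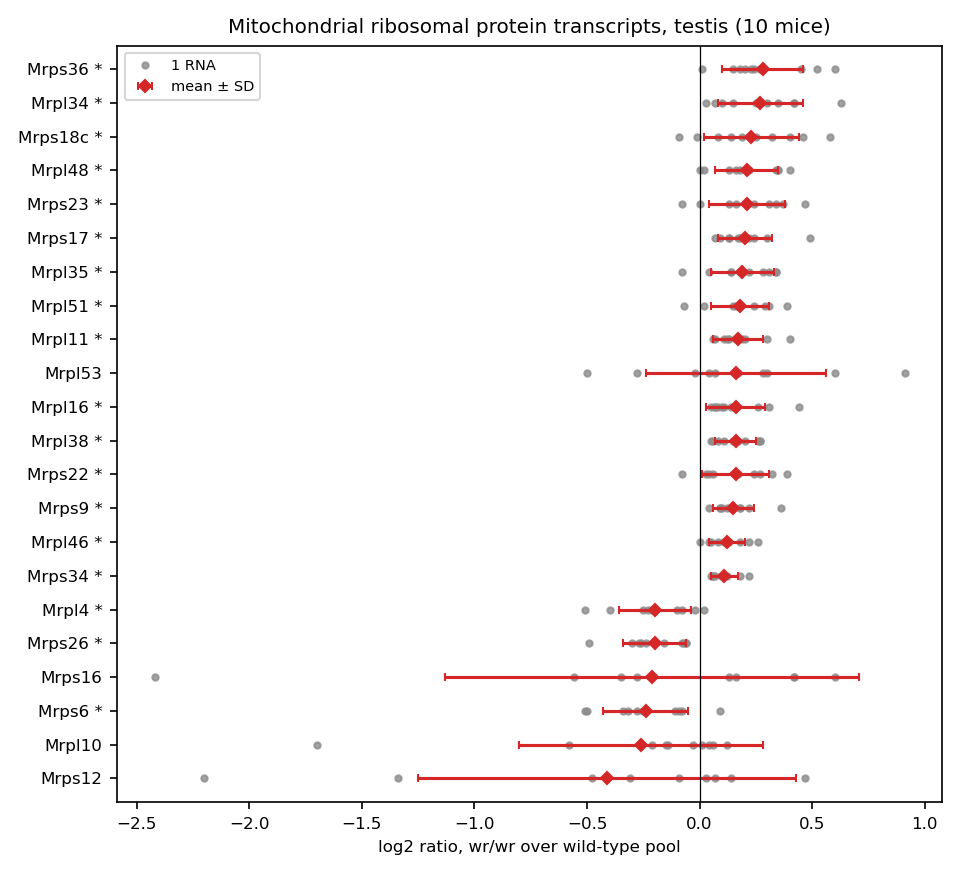
Testis log2 ratios of wr/wr over the wild-type pool for the called members, the lowest means and Mrpl53, with a grey point per mouse (n = 10, or 9 for Mrps12 and Mrps16), a red diamond for the mean and a bar for the SD. An asterisk marks an adjusted p of at most 0.05. The called members lie within 0.3 of 0 on average, whereas Mrps12, Mrps16 and Mrpl10 are spread out by 1 or 2 mice far below the rest.

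Among the small subunit proteins, 6 of 27 probes were higher and 2 lower, with a median of 0.0582. Mrps18c, 1 of the copies of bacterial S18, had a lowest ratio of -0.09, a median of 0.22 and a highest of 0.58, and averaged 0.23 ± 0.21 (SD, n = 10; adjusted p = 0.0408). Mrps17, a relative of bacterial S17, ran from 0.07 through a median of 0.17 to 0.49 and averaged 0.20 ± 0.12 (1.15-fold, adjusted p = 0.0181). For Mrps17 every mutant testis lay above the wild-type pool, while 2 of the 10 mice were below 0 for Mrps18c. Mrps9, a relative of bacterial S9, averaged 0.15 ± 0.09 (adjusted p = 0.0205) and lay between 0.04 and 0.36. Mrps23, Mrps22 and Mrps34, proteins found only in mitochondria, averaged 0.21 ± 0.17 (adjusted p = 0.0282), 0.16 ± 0.15 (adjusted p = 0.0481) and 0.11 ± 0.06 (adjusted p = 0.0302). Mrps34 had the narrowest spread of these, from 0.05 to 0.22.

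The 2 small subunit transcripts that were lower were Mrps26, found only in mitochondria, and Mrps6, a relative of bacterial S6. Mrps26 lay between -0.49 and -0.06 with a median of -0.20, and averaged -0.20 ± 0.14 (0.871-fold, adjusted p = 0.0227). It was the only member below 0 in all 10 mice on the average of both dyes. With the mutant RNA in Cy5 its mean was -0.35 (adjusted p = 0.0297), and with it in Cy3 -0.05 (adjusted p = 0.708). One probe of Mrps6 ran from -0.51 through a median of -0.26 to 0.09, with a mean of -0.24 ± 0.19 (adjusted p = 0.0283). Its dye means were -0.25 in Cy5 (adjusted p = 0.0297) and -0.23 in Cy3 (adjusted p = 0.177).

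In the large subunit, 8 of 51 probes were higher and 1 lower, with a median of 0.0715. Mrpl34, a relative of bacterial L34, ran from 0.03 through 0.27 to 0.63 and averaged 0.27 ± 0.19 (1.21-fold, adjusted p = 0.0196). Mrpl35, a relative of bacterial L35, averaged 0.19 ± 0.14 (adjusted p = 0.0250) and Mrpl16, a relative of bacterial L16, 0.16 ± 0.13 (adjusted p = 0.0335). Mrpl51, found only in mitochondria, ran from -0.07 through 0.18 to 0.39 and averaged 0.18 ± 0.13 (adjusted p = 0.0262). Mrpl34 and Mrpl16 were above 0 in all mice, and Mrpl35 and Mrpl51 in 9 of 10. With the mutant RNA in Cy5, Mrpl51 was at 0.35 (adjusted p = 0.00648), and with it in Cy3 at 0.02 (adjusted p = 0.868). In the same order Mrpl35 was at 0.33 and 0.05, Mrpl16 at 0.19 and 0.14, and Mrpl34 at 0.29 and 0.26.

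Of the central protuberance, the crown of the large subunit, 3 of 8 probes were higher and 0 lower. Mrpl48 averaged 0.21 ± 0.14 (adjusted p = 0.0196), Mrpl38 0.16 ± 0.09 (adjusted p = 0.0179) and Mrpl46 0.12 ± 0.08 (adjusted p = 0.0369). Mrpl38 lay between 0.05 and 0.27, with the mutant testes of all 10 mice above the pool. In the L7/L12 stalk, Mrpl11, at the base of the stalk, was the only 1 of 6 probes called. It ran from 0.06 through 0.14 to 0.40 and averaged 0.17 ± 0.11 (adjusted p = 0.0196). None of the 7 probes for proteins around the exit of the tunnel was called, with a median of 0.0453. The 1 large subunit transcript that was lower was Mrpl4, whose bacterial relative L4 lines the tunnel. It lay between -0.51 and 0.02, with a mean of -0.20 ± 0.16 (adjusted p = 0.0333), from -0.36 in Cy5 and -0.04 in Cy3. On the Cy3 arrays alone, 0 members were called lower. Proteins of bacterial descent and those found only in mitochondria had 7 of 47 and 7 of 31 probes higher, with 2 and 1 lower.

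Mrps36 had the highest mean among the called members. Its ratio ran from 0.01 through a median of 0.23 to 0.60 and averaged 0.28 ± 0.18 (1.22-fold, adjusted p = 0.0174).

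The remaining 61 members were not called. Mrpl53 itself lay between -0.50 and 0.91, with a median of 0.12 and a mean of 0.16 ± 0.40 (adjusted p = 0.395), with mice on both sides of 0. The lowest mean, that of Mrps12, a relative of the S12 protein of the decoding site, was -0.41 ± 0.84 (n = 9, adjusted p = 0.298). It rested on mice 6065 and 5907, at -2.20 and -1.34, against values from -0.48 to 0.47 in the others. One probe of Mrpl10, the stalk protein that carries Mrpl12, averaged -0.26 ± 0.54 (adjusted p = 0.293) with mouse 6065 at -1.70. Mrps16, a relative of bacterial S16, averaged -0.21 ± 0.92 (n = 9, adjusted p = 0.638) with mouse 6163 at -2.42, and its mean was 0.07 without that mouse. In all, 6 members had an SD over 0.5.

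The count of called members depended on single mice. The 18 calls (22.8%, against 12.3% of all probes) became 3 without mouse 6493 (3.8%, against 3.73%), 7 without 6069 (8.86%, against 4.95%), 8 without 5907 (10.1%, against 6.15%) and 8 without 6335 (10.1%, against 6.12%). Calls over all probes fell with these mice left out too. On the arrays with the mutant RNA in Cy3, 6 members were called (7.59%, against 6.73%). Among these was Mrpl53 (1.09, adjusted p = 0.0177), which is not among the 18. Without mice 5905, 5997 and 6065, whose dye orientations disagreed in an earlier look at these data, 21 members were called (26.6%, against 13.4%). These mice were picked from the same data, and 5905 and 5997 had the lowest members' medians (0.0137 and 0.00938). That count is therefore no independent check. The members' median held between 0.0668 and 0.0890 when any 1 mouse was left out.

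For 14 genes with more than 1 probe, the probes could be set beside each other, and no gene had every probe called. For 6 of them the probes lay on both sides of 0: Mrps6, Mrpl34, Mrpl4, Mrpl10, Mrpl17 and Mrpl37. The other probe of Mrps6 averaged 0.34 ± 0.34 (adjusted p = 0.0592), against -0.24 for the called one, and with both averaged the gene was at 0.01. The other probe of Mrpl34 was at -0.10 ± 0.09 (adjusted p = 0.0867) and that of Mrpl4 at 0.06 ± 0.11 (adjusted p = 0.316). The other probes of Mrpl48 (0.02 ± 0.17), Mrps17 (0.01 ± 0.20) and Mrps23 (0.06 ± 0.13) lay near 0. For Mrps6, Mrpl34, Mrpl4, Mrpl48, Mrps17 and Mrps23 the call thus came from 1 probe, and with probes averaged Mrpl48 alone of these was called (0.12, adjusted p = 0.0397). Which transcript each probe detects was not checked, since probe sequences were not used here. With probes averaged and genes tested, 13 of 64 members were called (20.3%, against 12.9% of all genes).

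The mice differed in the size of the members' ratios. The median was highest in mouse 5907 (0.166) and mouse 5995 (0.160), and near 0 in mouse 5905 (0.0137) and mouse 5997 (0.00938). In 5905 and 5997, transcripts of the cytosolic ribosome and of the respiratory chain were near 0 as well, with medians of 0.00700 and -0.0385 for the first list and -0.00825 and -0.0498 for the second. In those lists, over all mice, 50 of 89 cytosolic ribosomal protein probes were higher and 0 lower (median 0.230), and 44 of 99 respiratory chain and ATP synthase probes were higher and 1 lower (median 0.168). Rps14 (0.37 ± 0.20, adjusted p = 0.0114), a protein of the small cytosolic subunit, and Ndufb8 (0.23 ± 0.09, adjusted p = 0.00813), a subunit of complex I, are examples.

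**Figure D2:**
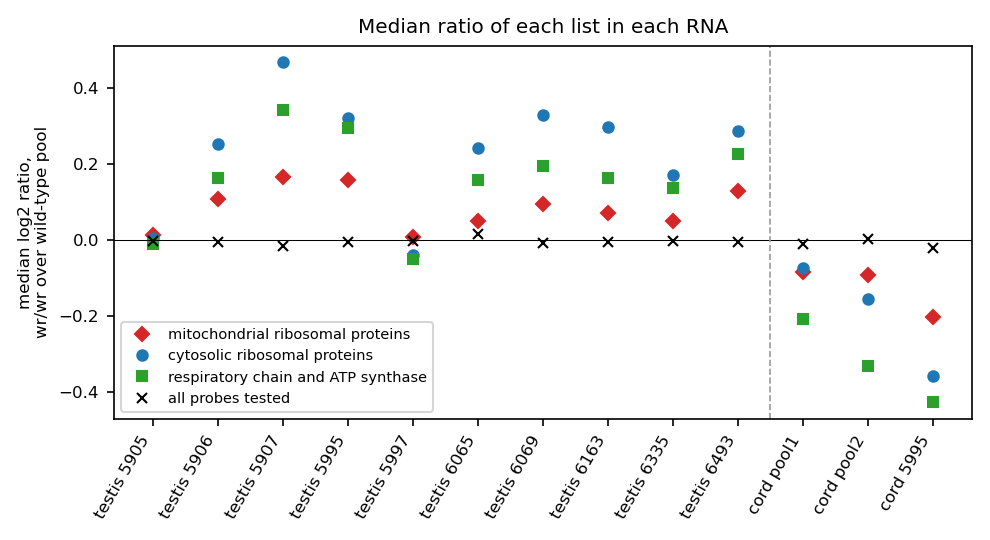
Median log2 ratio of wr/wr over the wild-type pool in each RNA, for the members (red diamonds), cytosolic ribosomal proteins (blue circles), the respiratory chain and ATP synthase (green squares) and all probes tested (crosses). The members lie above 0 in the 10 testes, from 0.00938 to 0.166, and below 0 in the 3 cord RNAs, from -0.202 to -0.0839.

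Other parts of mitochondrial gene expression were mixed in testis, where 7.28% of all probes tested were higher and 5.06% lower. The shares of assembly factors, translation factors and nuclear regulators lay near these. Of the proteins of this ribosome that carry other names, 2 of 7 probes were higher, both for Dap3, a GTP-binding protein of the small subunit (0.28 ± 0.17, adjusted p = 0.0155, and 0.17 ± 0.15, adjusted p = 0.0390). Factors that assemble the ribosome had 1 of 17 probes higher and 1 lower (5.88% each, median 0.00572). Translation factors had 1 of 11 higher and 1 lower (9.09% each). The higher was Tufm, which delivers aminoacyl-tRNA (0.17 ± 0.11, adjusted p = 0.0232), and the lower Mtfmt, which formylates the initiator (-0.23 ± 0.19, adjusted p = 0.0321). Mitochondrial aminoacyl-tRNA synthetases had 0 of 10 higher and 2 lower (20%), Sars2 (-0.15 ± 0.12, adjusted p = 0.0370) and Iars2 (-0.12 ± 0.09, adjusted p = 0.0449). Both probes of Tfam, which packs and transcribes mitochondrial DNA, were higher (0.35 ± 0.34, adjusted p = 0.0438, and 0.19 ± 0.18, adjusted p = 0.0464), among 2 of 15 probes of mitochondrial DNA upkeep. Of the protein import machinery, 12 of 36 were higher (33.3%) and 0 lower (median 0.137). Of the citric acid cycle, 5 of 22 were higher (22.7%) and 1 lower (4.55%, median 0.0928). Among nuclear regulators of mitochondrial genes 1 of 13 was higher (7.69%), Yy1 (0.13 ± 0.11, adjusted p = 0.0499), while Nrf1 was at -0.12 ± 0.11 (adjusted p = 0.0641).

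Markers of some cell types of the testis differed as well, where 7.28% of all probes tested were higher and 5.06% lower. Leydig cell markers had 0 of 9 probes higher and 5 lower (median -0.272, from -0.476 to -0.0375 by mouse). Sertoli cell markers had 4 of 10 higher and 0 lower (from -0.0711 to 0.438 by mouse), meiotic germ cell markers 3 of 8 higher and 1 lower (from -0.000875 to 0.322) and haploid germ cell markers 0 of 15 higher and 1 lower (from -0.506 to 0.377). The part of these differences in the members' ratios was not tested. In RNA of whole organs, fewer cells of a type and less RNA per cell cannot be told apart.

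In cord, no member was called. Of 68 members tested, 0 were called, as were 0 of 17055 probes in all (0%), with limma, and the smallest adjusted p was 0.542. At an unadjusted p under 0.05, 1 member was higher and 3 lower (5.88%, against 8.65% of all probes). The direction leaned below 0: 48 of 68 means were negative, against 8606 of 17055, and the members' median was -0.131, against -0.00317. All 3 RNAs were negative for 27 members (39.7%, against 20.7% of all probes) and positive for 6 (8.82%, against 18.5%). The median was -0.202 in mouse 5995, -0.0839 in pool1 and -0.0920 in pool2.

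This lean depended on the dye. The members' median in cord was 0.00350 with the mutant RNA in Cy5 and -0.242 with it in Cy3, where all probes were at 0.00183 and 0.00500. If the deposited ratios are read as Cy5 over Cy3 on every array, it becomes 0.126. With both tissues in 1 fit, which lends the cord the narrower spread of the testis, 13 members were called, 5 higher and 8 lower, as were 2707 (15.9%) of all probes. The remaining 11 members lacked a value in both dyes in 1 cord RNA and were not tested: Mrpl10, Mrpl17 and Mrpl21 with 1 probe each, Mrps10 with both, and Mrpl15, Mrpl33, Mrpl55, Mrps11, Mrps12 and Mrps16.

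**Figure D3:**
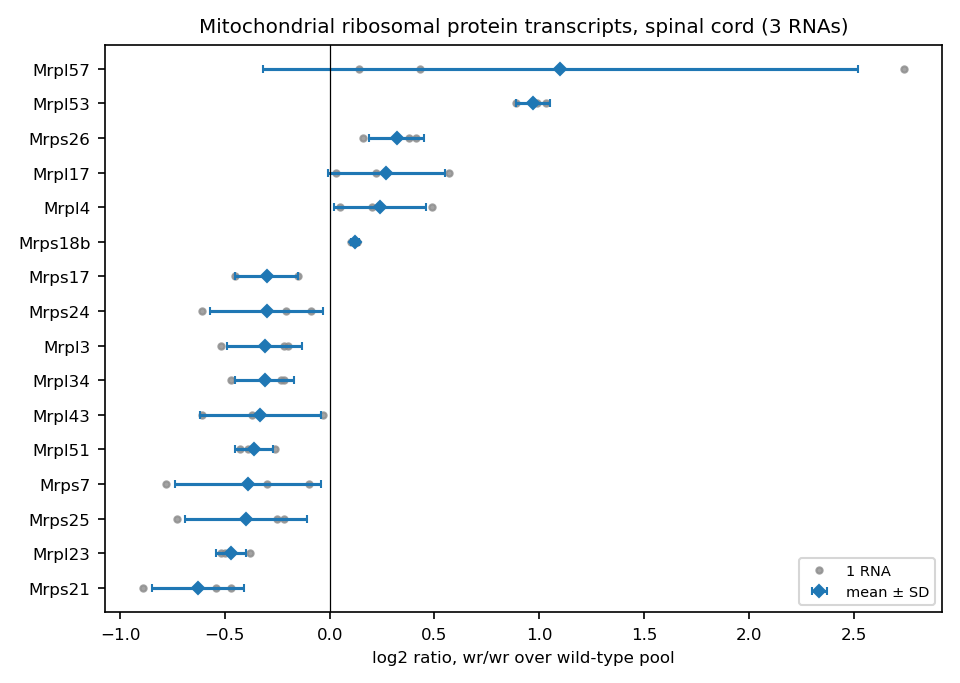
Cord log2 ratios of wr/wr over the wild-type pool for members with 1 sign in all 3 RNAs (the 6 positive and the 10 lowest) with a grey point per RNA, a blue diamond for the mean and a bar for the SD. None reached an adjusted p of 0.05. Mrpl53 stands near 1 with points close together, each a mean of dye orientations of opposite sign, while Mrpl57 rests on pool1.

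Mrpl23, a protein at the tunnel exit, was at -0.38 in pool1, -0.52 in pool2 and -0.50 in mouse 5995 (mean -0.47 ± 0.07). Mrpl51 was at -0.26, -0.43 and -0.39 in the same order (-0.36 ± 0.09), and Mrps21, a relative of bacterial S21, at -0.54, -0.47 and -0.89 (-0.63 ± 0.22). These 3 are the members that were lower at an unadjusted p under 0.05. In mouse 5995, Mrps25 and Mrps7 were lower than in the pools: Mrps25, found only in mitochondria, was at -0.22 in pool1, -0.25 in pool2 and -0.73 in mouse 5995, and Mrps7, a relative of bacterial S7, at -0.10, -0.30 and -0.78. For Mrps7 the mean was -1.05 with the mutant RNA in Cy5 and 0.26 with it in Cy3. The 7 central protuberance probes tested all had negative means (median -0.288), but their median was 0.0678 in Cy5 and -0.590 in Cy3. Averaged over dyes, they had a median of -0.726 in mouse 5995 against -0.0515 in pool1 and -0.181 in pool2.

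Above 0 in all 3 cord RNAs were Mrpl53, Mrpl57, Mrps26, and 1 probe each of Mrpl17, Mrpl4 and Mrps18b. Mrpl57, found only in mitochondria, was at 2.74 in pool1, 0.43 in pool2 and 0.14 in mouse 5995 (1.10 ± 1.42), so its mean rests on 1 pool. Mrps26 was at 0.16, 0.41 and 0.38 (0.32 ± 0.13), with a mean of -0.04 on the arrays with the mutant RNA in Cy5. The highest cord mean of all, that of Mrpl20, a relative of bacterial L20, was 2.94 ± 5.73 and came from 1 array of pool2 with a ratio of 16.24.

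Mrpl53 was near 1 in each cord RNA, at 1.03 in pool1, 0.89 in pool2 and 0.99 in mouse 5995, with a mean of 0.97 ± 0.08 (1.96-fold, limma adjusted p = 0.542). These means join values of opposite sign. With the mutant RNA in Cy3, the ratio was 2.93 in pool1, 2.51 in pool2 and 6.43 in mouse 5995. With it in Cy5 it was -0.87, -0.74 and -4.45 in the same order. The sign turned with the dye in every cord RNA, and in pool2 1 of the 2 Cy5 arrays had no value. The gap between the orientations, Cy5 minus Cy3, was -5.98 on average, and only 25 of the 17055 cord probes had a larger one. In testis the same probe averaged -0.78 ± 0.92 with the mutant RNA in Cy5 and 1.09 ± 0.69 with it in Cy3, and the Cy5 ratio was the lower one in all 10 mice. Averaging both dyes removes a constant dye effect, and whether it does so at gaps of this size was not tested.

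Other members showed smaller dye gaps. A gap of more than 1 in size was found in testis for 1 of 79 members (1.27%, against 1.83% of all probes), Mrpl53, and in cord for 12 of 68 (17.6%, against 16.1%). Over the 68 members tested in both tissues, the gaps of testis and cord correlated with r = 0.582 and rho = 0.579. Over all probes tested in both tissues, r was 0.198 and rho 0.299. These describe probes that share arrays of 1 design and the same dyes, and the members' r includes Mrpl53, far from the others. The mean of Mrpl3, a core protein of the large subunit, was -0.31 ± 0.18 in cord, with 1.96 on the Cy3 arrays.

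**Figure D4:**
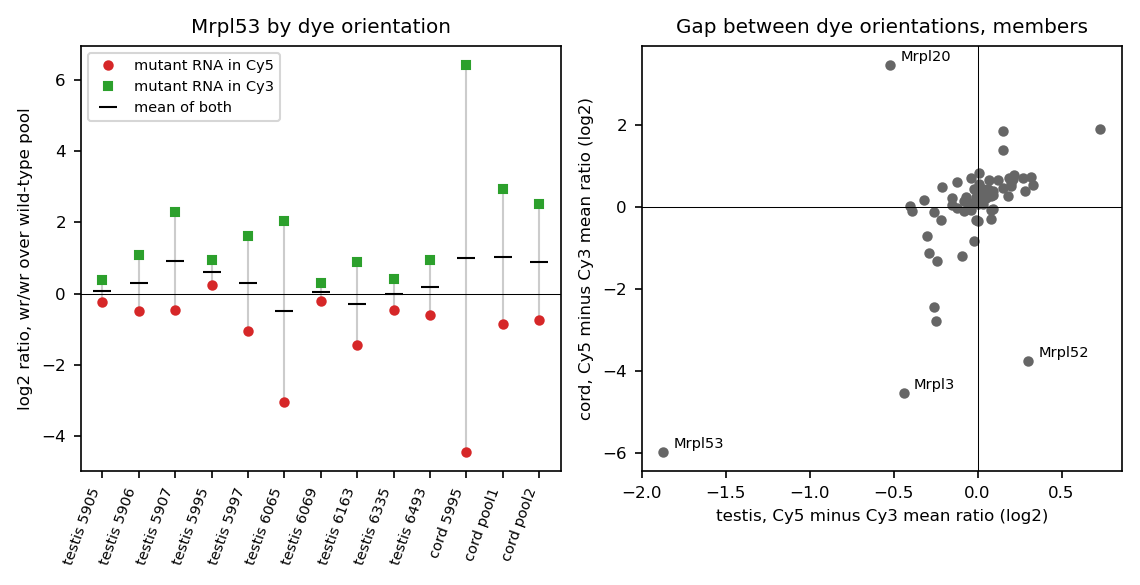
Left, log2 ratio of Mrpl53 in each RNA with the mutant RNA in Cy5 (red circles) or Cy3 (green squares), with a black dash for their mean, which was used. Right, Cy5 mean minus Cy3 mean of each member in testis (x) and cord (y), in log2 units, with Mrpl53 far from the others at -1.87 and -5.98.

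In cord, where no probe was called, microglia markers had a median of 0.650 (from 0.634 to 0.717 by RNA), and astrocyte markers had a median of 0.277 (from 0.198 to 0.494). Myelin markers were at -0.491 (from -0.546 to -0.396) and neuron markers at -0.194 (from -0.267 to -0.113). The other lists also differed by dye, at 0.0237 in Cy5 and -0.446 in Cy3 for the cytosolic ribosome and at -0.0743 and -0.552 for the respiratory chain. Over both dyes, the cytosolic ribosomal proteins were at -0.185 and the respiratory chain and ATP synthase at -0.316, and the members' median was closer to 0 than that of the respiratory chain in each of the 3 RNAs. What part these cell types had in the members' ratios was not tested.

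The difference between tissues was tested itself, as the testis ratio minus the cord ratio over 13 RNAs. That fit used 1 pooled spread and left out the pairing of shared mice. Over all probes the median SD was 0.173 in testis and 0.264 in cord, so the cord was lent the narrower spread. Of 68 members, 25 were called: 20 with the testis ratio above the cord ratio (29.4%, against 10.8% of 17005 probes) and 5 with it below (7.35%, against 10.4%). Mrpl51 had the smallest p, with a difference of 0.54 (adjusted p = 0.00305), from 0.18 in testis and -0.36 in cord. For Mrps17 the difference was 0.50 (0.20 in testis, -0.30 in cord, adjusted p = 0.00432), and for Mrpl23 0.60 (0.13 in testis, -0.47 in cord, adjusted p = 0.00598). In these 3 the sign differed between the organs on the average of both dyes. The same held for Mrpl38 (difference 0.38, adjusted p = 0.00836), Mrpl34 (0.54, adjusted p = 0.0131), Mrps25 (0.65, adjusted p = 0.0167) and Mrps9 (0.40, adjusted p = 0.0232). On the Cy5 and Cy3 arrays, cord Mrpl51 was at -0.09 and -0.62, and Mrps17 at -0.02 and -0.58. Mrpl38 was at -0.02 and -0.42, and Mrpl34 at -0.09 and -0.45. Mrpl23 (-0.47 and -0.46), Mrps25 (-0.39 and -0.41) and Mrps9 (-0.28 and -0.21) differed less by dye in cord. In testis, Mrps25 was at 0.05 on the Cy5 arrays and 0.45 on the Cy3 arrays. On the Cy5 arrays alone, the tissue difference stayed called for Mrpl51 (0.44) and Mrps25 (0.44). It was not called there for Mrps17 (0.23), Mrpl38 (0.20), Mrpl34 (0.37), Mrpl23 (0.55) or Mrps9 (0.42). On the Cy3 arrays alone, all of these stayed called except Mrps25 (0.86, adjusted p = 0.075).

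In the opposite direction, Mrps26 was at -0.20 in testis and 0.32 in cord, a difference of -0.52 (adjusted p = 0.00496). Mrpl4 was at -0.20 in testis and 0.24 in cord (difference -0.44, adjusted p = 0.0197). On the Cy5 arrays alone, the difference was -0.69 for Mrpl4 (adjusted p = 0.16) and -0.31 for Mrps26 (adjusted p = 0.309). On the Cy3 arrays alone, it was -0.19 for Mrpl4 (adjusted p = 0.648) and -0.72 for Mrps26 (adjusted p = 0.0117). Mrpl53 differed by -0.81 (adjusted p = 0.0239), and by 1.24 on the Cy5 arrays alone. Of the 15 members higher in testis, all 15 were tested in cord, 14 had a negative mean there (93.3%) and 10 were negative in all 3 RNAs (66.7%). Of all 1363 probes higher in testis and tested in cord, 72.5% and 41.7% were so. On the Cy5 cord arrays alone, 8 of the 15 (53.3%) were below 0, against 48.9% of the 1363, and on the Cy3 arrays 14 (93.3%), against 74.9%. Of the 10 genes named for their tissue difference, 4 had another probe tested in both organs. The second probe of Mrps17, at 0.01 in testis and 0.76 in cord, was called the opposite way (difference -0.75, adjusted p = 0.0447). That of Mrps25, at 0.05 in testis and 0.87 in cord, differed by -0.82 (adjusted p = 0.0540), that of Mrpl4 by -0.01 (adjusted p = 0.976) and that of Mrpl34 by 0.21 (adjusted p = 0.0748).

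**Figure D5:**
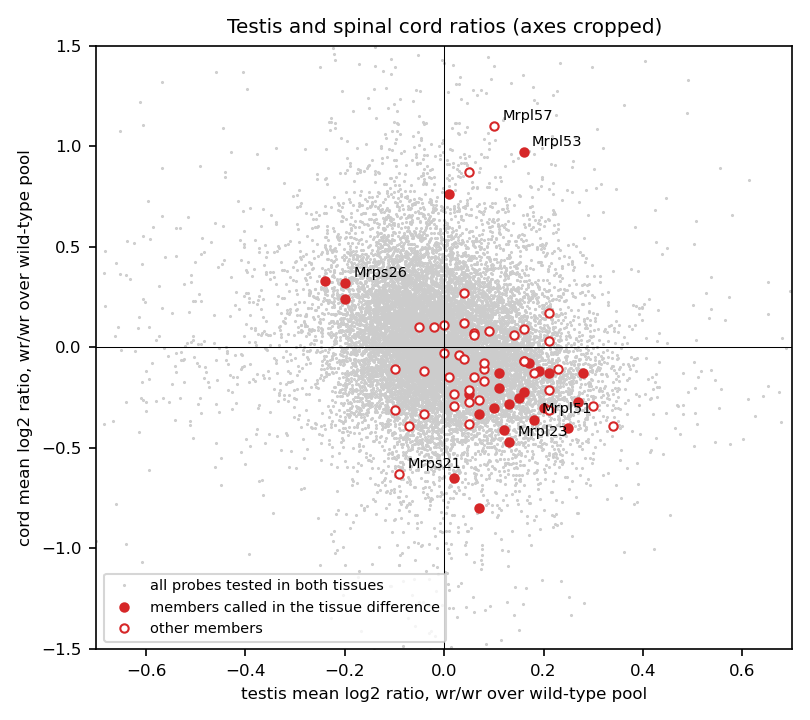
Mean log2 ratio of wr/wr over the wild-type pool in testis (x) against cord (y) for the 68 members tested in both, filled where the tissue difference was called, over all 17005 probes (grey). Mrpl20 lies outside the cropped axes at 2.94 in cord. Most filled points sit right of 0 and below 0, with Mrps26 and 2 neighbours at the upper left and Mrpl53 near the top.

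The cord RNAs come from mice whose testes were also measured. When a replicate block tied each cord RNA to the testis values of the animals it came from, which leaves 3 differences, 0 of the 25 members stayed called (smallest adjusted p 0.392, 11 members at an unadjusted p under 0.05). No probe at all was called in that fit, against 3604 without the block. On the Cy5 arrays alone 5 members were called (4 above, 1 below), and on the Cy3 arrays alone 28 (24 above, 4 below). The shares over all probes were not recorded for these dye settings, so these counts cannot be read as particular to the members. Over the 68 members, the means of testis and cord correlated with r = 0.0870 and rho = -0.137, against r = -0.122 and rho = -0.205 over all 17005 probes, a description across probes measured in organs of the same mice.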

How the data were processed

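The authors deposited 1 normalized log2 ratio per probe and array, 50 arrays in all. The log base is not stated and was read as log2, and how the scans were corrected, normalized and filtered before deposit is not given in the sources used here. Per the labels, total RNA was reverse transcribed, labelled indirectly with Cy3 or Cy5 and hybridised against a pool of wild-type RNA. The labels list 10 wild-type mice per pool, the labelling protocol a smaller number, and this was not settled. Testis arrays held values for 19070 to 20189 probes, cord arrays for 18338 to 20034. Without intensities the depth of a value is unknown, and the number of arrays limits its precision.

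Each array was centred on its median, and the Cy5 and Cy3 means of an RNA were averaged. Probes with both dyes in at least 8 of 10 testis mice, or in all 3 cord RNAs, were tested against 0 with limma 3.58.1 (lmFit, eBayes) in R 4.3.3, with Benjamini-Hochberg adjustment over all probes and a threshold of 0.05. The tissue difference was fitted over 13 RNAs with 1 pooled spread. The fits were tested on simulated data. Platform annotation, which can be old, gave 1 symbol for 14030 probes, several for 5 and none for 6320. No pair of arrays held identical values. Values above 10 in size, 2 of them on members, were kept.

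The members, the role lists and the lists of other genes were chosen with earlier results of these data known. Named were Mrpl53, up to 20 called members by p and the 6 lowest means in testis, up to 10 cord means per direction with 1 sign in all 3 RNAs, the 10 tissue differences with the smallest p, other probes of named genes, and up to 3 genes of a list by p. Other genes and probes named were chosen after their values were seen. Cord RNAs and testes share mice, which pairs them. Across probes, deviations from the tissue mean in a cord RNA and in its own testes gave r = -0.00673 (pool1), -0.00179 (pool2) and 0.00842 (mouse 5995). Alternatives were centring, dye orientation, direction, extreme values, scale, filters, probe averaging, robust eBayes, left-out RNAs and the replicate block.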

Additional observations from a re-analysis of the deposited data

Results flagged for a closer look

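Of 23 results tested for a sample far from the others, 2 had one, where chance gives about 1 in 20: Mrpl10 in testis (probe 2575), with mouse 6065 at -1.70, and Mrps16 in testis, with mouse 6163 at -2.42.

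With 1 pooled spread and no pairing of shared mice, the tissue difference was called for 25 member probes. The 10 with the smallest p, testis minus cord, were Mrpl51 (0.54), Mrps17 (0.50), Mrps26 (-0.52), Mrpl23 (0.60), Mrpl38 (0.38), Mrpl34 (0.54), Mrps25 (0.65), Mrpl4 (-0.44), Mrps9 (0.40) and Mrpl53 (-0.81). None of them was called with the replicate block.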

How the results depend on the processing

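The members' counts and medians in testis and cord and the count of tissue differences were recomputed, 1 value and 1 setting at a time. A median stayed within the spread, or a count within 1.5 times, in 58 of these recomputations, including all with no centring, robust eBayes or values above 10 as missing. Medians or counts moved further in 11 and turned sign in 2. The count of 18 testis calls became 6 with Cy3 arrays only, among them Mrpl53, which was not called on the average of both dyes. The count became 3 with ratios read as Cy5 over Cy3, where the median was 2.5e-05. With 1 mouse left out the count ran from 3 to 20, and the median lay between 0.0668 and 0.0890. The cord median became 0.0035 with Cy5 arrays only, -0.242 with Cy3 arrays only and 0.126 read as Cy5 over Cy3, and lay between -0.158 and -0.0999 with 1 RNA left out, where the cord count was 0 each time. With both tissues in 1 fit, 13 cord members were called. The count of 25 tissue differences became 5 with Cy5 arrays only, 28 with Cy3 arrays only and 0 with the replicate block, which has 3 paired differences. For the single-dye counts the shares over all probes were not recorded.

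Of named values, these turned sign. With Cy5 arrays only, Mrpl53 was -0.78 in testis, -2.02 in cord and 1.24 in the tissue difference, and Mrps26 -0.04 in cord. With Cy3 arrays only, cord Mrpl17 was -0.07, Mrpl3 1.96 and Mrps7 0.26. With probes of a gene averaged, testis Mrps6 was 0.01, cord Mrps17 0.23 and cord Mrps25 0.24. With 1 mouse left out, testis Mrps16 ran from -0.31 to 0.07 and was positive without mouse 6163. A further 86 settings of named testis members and 19 of named differences lost the call with the same direction. The causes were not tested.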
